A study of Mus musculus with 40 samples.

Results

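Transcripts of 10 genes of the NF-κB system were followed in mouse T cells: the 5 subunits of the transcription factor (Rela, Rel, Relb, Nfkb1 and Nfkb2), 4 genes of the IκB family (Nfkbia, Nfkbib, Nfkbid and Nfkbiz) and Tnfaip3, which encodes A20. The genes were chosen by symbol from the 21950 genes of the table, with earlier results of these data known. Bulk RNA-seq had been made from 24 libraries in 8 groups of 3, all from splenic CD4+ T cells of C57BL/6 mice that carry a Foxp3 fluorescent reporter. Conventional T cells (Tconvs) and thymus-derived regulatory T cells (tTregs, called nTreg in the labels; sorted as CD4+ Foxp3-GFP+) came from mice of 2 to 4 months and were taken resting or after activation. Induced regulatory T cells (iTregs) were made in vitro from sorted naive CD4+ cells of 6-week-old mice with plate-bound anti-CD3 (0.5 μg/ml), anti-CD28 (1 μg/ml), TGF-β (2 ng/ml) and IL-2 (200 U/ml) for 4 days. They were sorted on the reporter and rested in IL-2 for 1 day, and were then left resting, restimulated through CD3 and CD28, or restimulated with an inhibitor. The inhibitors were CM-4620, a blocker of the ORAI calcium channel (the label names only an ORAI inhibitor), and cyclosporin A (CsA), which blocks calcineurin. Every iTreg group therefore shares the induction, the reporter sort and the rest. Activation and restimulation times and inhibitor doses of these libraries are not given in the sources used here, and nothing says whether replicates came from separate mice or cultures, so p-values measure only the spread between these libraries.

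NF-κB factors are dimers of Rel-family proteins that are held in the cytoplasm by IκB proteins. After ligation of the T cell receptor and CD28, the IκB kinases become active, IκB is destroyed and the dimers enter the nucleus. Nfkb1 and Nfkb2 encode precursors that are processed to p50 and p52, which lack a transactivation domain of their own, whereas RelA, c-Rel and RelB carry one. Several genes of the system, Nfkbia and Tnfaip3 among them, are themselves NF-κB targets, which closes a negative feedback loop, and c-Rel is known for its part in Foxp3 induction and Treg development.

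Promoter sequence from RefSeq (GRCm38.p6; 250 bases before to 50 after each annotated start) was found for 7 of the 10 genes, in 12 windows; Relb, Nfkb1 and Nfkbiz had no entry. A match to the κB consensus, a motif of 10 bases searched on both strands, was present in 7 of the 12 windows, which belong to Rel, Nfkb2, Nfkbia, Nfkbid and Tnfaip3, against 8.46% of the 32851 windows of all genes. For Nfkb2, 2 of the 3 windows overlap and share a match, which is counted in both. The 130 bases before the start are printed for the genes with the largest differences described below that hold a match there, 5′ to 3′ on the strand of the gene, with bases that belong to a match in capitals. The windows are chr11:23770970-23771099 on the minus strand for Rel, chr19:46304607-46304736 on the plus strand for Nfkb2, chr12:55492648-55492777 on the minus strand for Nfkbia and chr10:19015411-19015540 on the minus strand for Tnfaip3.
Rel: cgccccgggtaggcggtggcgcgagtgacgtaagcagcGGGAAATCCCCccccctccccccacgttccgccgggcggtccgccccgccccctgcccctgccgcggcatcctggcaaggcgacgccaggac
Nfkb2: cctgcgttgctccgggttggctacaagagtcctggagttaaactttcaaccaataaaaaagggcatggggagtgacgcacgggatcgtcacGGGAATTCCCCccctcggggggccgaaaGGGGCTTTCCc
Nfkbia: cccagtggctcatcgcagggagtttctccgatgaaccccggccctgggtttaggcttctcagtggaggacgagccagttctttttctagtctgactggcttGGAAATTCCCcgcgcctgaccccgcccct
Tnfaip3: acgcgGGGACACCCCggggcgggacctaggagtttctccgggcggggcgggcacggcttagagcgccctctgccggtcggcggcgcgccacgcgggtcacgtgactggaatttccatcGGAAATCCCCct
Matches that overlap run together. The Rel stretch holds 2 overlapping matches, which begin 92 and 91 bases before the start. The Nfkb2 stretch holds 3, of which 2 overlap, and the match nearest the start begins 11 bases before it. Nfkbia has 1 match at 29 bases before the start, and Tnfaip3 has 2, at 125 and 12 bases. Nfkb2, Nfkbid and Tnfaip3 have further annotated starts, and the windows of Rela and Nfkbib held no match. A match describes letters only and says nothing of binding in these cells.

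The values are normalized counts, that is, reads per gene divided by a size factor per library. The libraries held 5.26 to 15.69 M reads on genes, with 5.26 to 9.89 M in the tTreg libraries and 9.81 M or more in the others. A floor of 3 reads was worth 2.12 to 5.45 normalized counts, and every member stood above it in all 24 libraries. Genes that reached 10 normalized counts in 3 or more libraries of a fit entered the limma test on log2(normalized count + 1), and a gene was called changed at an adjusted p (Benjamini-Hochberg over all genes tested) below 0.05 with an absolute log2 fold change above 0.5. All 10 members passed this filter in each fit. T cell markers were present in all libraries. The summed level of 4 Treg markers was 458 to 478 in resting and 5116 to 5357 in activated Tconvs. It was 25348 to 28206 in resting tTregs and 13240 to 17057 in resting iTregs. Il2ra, at 4351 in activated Tconvs, stood at 11560 in resting iTregs and 6752 in resting tTregs (means of 3). Ctla4 was at 2144 and 2897, Foxp3 at 1280 and 7537, and Ikzf2 at 167 and 9403 in the same order. In resting Tconvs Ikzf2 was at 195. In bulk RNA, fewer cells of a type and less RNA per cell cannot be told apart.

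**Figure D1:**
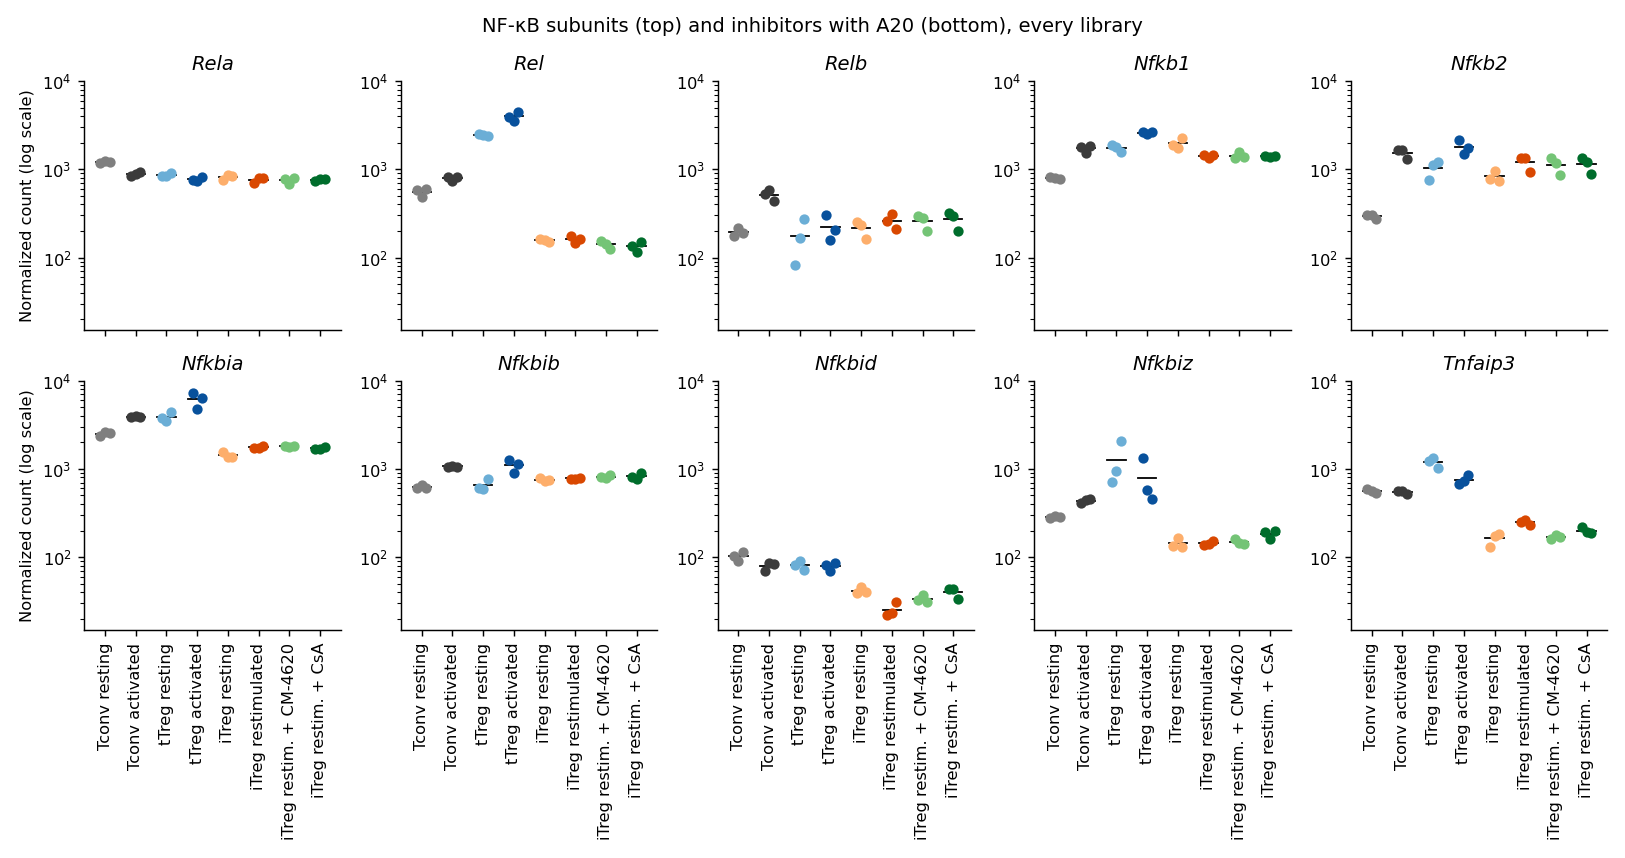
Normalized counts (log axis) of the 5 subunit genes (top) and of the 4 IκB genes and Tnfaip3 (bottom) in each of the 24 libraries; points are libraries and short lines are means of 3. Rel is at 2415 or more in every tTreg library and at 177 or less in every iTreg library, and Tnfaip3 is at 680.0 or more in the former and at 262 or less in the latter.

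Because transcripts differ in length, genes were compared with each other per kb of exon (GENCODE annotation of GRCm38, older than the release the study used). The subunit genes lie at chr19:5637483-5648130 (Rela), chr11:23736847-23770970 (Rel), chr7:19606217-19629438 (Relb), chr3:135584655-135691547 (Nfkb1) and chr19:46304320-46312385 (Nfkb2). The inhibitor genes lie at chr12:55489410-55492647 (Nfkbia), chr7:28758251-28767512 (Nfkbib), chr7:30421732-30428746 (Nfkbid), chr16:55811375-55838899 (Nfkbiz) and chr10:19000910-19015657 (Tnfaip3). Exons of genes on the other strand cover 18.1% of the exon bases of Nfkb2 (AC114539.1 and Psd) and 16.4% of those of Nfkbib (Ccer2 and Sirt2), and the libraries do not mark strand, so reads there cannot be told apart. Nfkbia, the gene of IκBα, had the highest level per kb of the 10 genes in all 8 groups. It stood at 1553 ± 88.1 normalized counts per kb (SD, n = 3) in resting Tconvs, 2417 ± 322 in resting tTregs and 883 ± 64.9 in resting iTregs. Nfkbid, which encodes the nuclear IκB protein IκBNS, was the lowest of the 10 in all 8 groups, from 43.7 ± 5.51 per kb in resting Tconvs to 10.9 ± 2.00 in restimulated iTregs; in CsA-treated iTregs Rel, at 17.9 ± 2.43, did not differ from it beyond the spread and came below it when the longest transcript was used as the length.

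The make-up of the 5 subunits per kb differed between the cell types. Rela, whose product is the main transactivating subunit of the canonical pathway, took 60.7% ± 1.08 (SD, n = 3) of the summed level per kb in resting Tconvs, 27.6% ± 1.19 in resting tTregs and 38.9% ± 1.5 in resting iTregs. Rel took 11.5% ± 1.47 in resting Tconvs, 32.2% ± 2.80 in resting tTregs and 36.8% ± 2.28 in activated tTregs, the highest of the 5 in both tTreg groups. In the 4 iTreg groups the share of Rel was between 2.57% ± 0.54 and 3.06% ± 0.24. With the longest transcript as the length, these shares of Rel were 8.79%, 23.7%, 27.0%, 1.77% and 1.95% in the same order. Nfkb1 depends most on that choice, since its merged exons span 12.06 kb and its longest transcript 4.15 kb: its share in resting iTregs was 23.7% ± 3.44 with the first and 43.9% with the second, and with the second Nfkb1, not Rel, was the highest of the 5 in tTregs. With both lengths the share of Rel was highest in tTregs and lowest in iTregs.

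**Figure D2:**
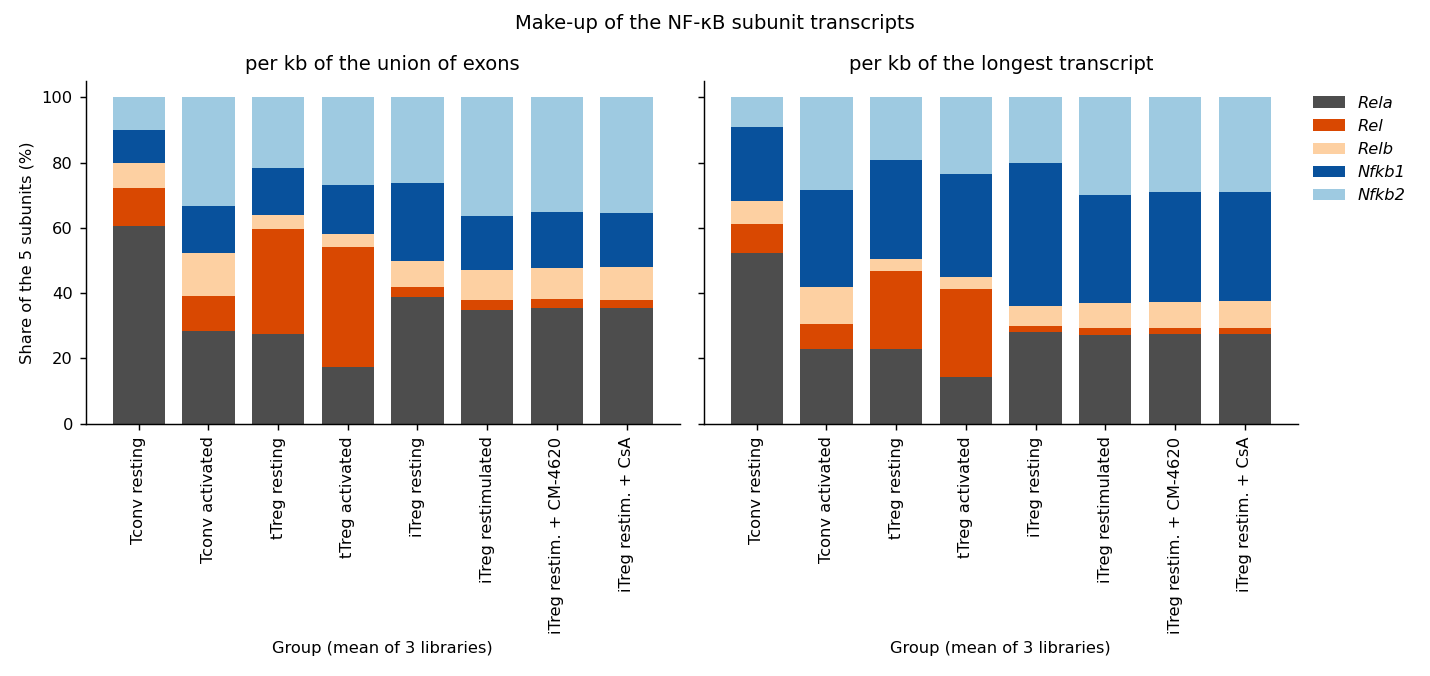
Share (%) of each of the 5 subunit genes in their summed normalized count per kb, as the mean of 3 libraries per group, with the merged exons (left) or the longest transcript (right) as the length. Rel takes 32.2% and 36.8% in resting and activated tTregs and 2.57% to 3.06% in iTregs on the left, and the band of Nfkb1 is wider on the right.

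The activation of Tconvs raised both precursor genes, 2 of the 3 transactivating subunits and 2 IκB genes. Of the 10 members, 6 were called higher, where 24.5% of all genes tested were, and 0 were called lower, where 25.7% were (2 at an unadjusted p below 0.05; 0 with edgeR or DESeq2). The median log2 fold change was 0.62 over the members and -0.04 over all genes. Nfkb2 was at 304, 305 and 275 normalized counts in the 3 resting libraries and 1647, 1651 and 1298 in the activated ones. Every activated library lay above every resting one, and the fold change was the largest of the 10 genes (log2 fold change 2.37 ± 0.17 (SE), adjusted p = 2.08e-08). Relb, the partner of p52 in the non-canonical pathway, was at 174, 217 and 189.6 at rest and 523, 586 and 441 after activation (log2 fold change 1.41 ± 0.34 (SE), adjusted p = 0.00208). Nfkb1 was at 827, 789 and 786 and 1787, 1537 and 1858 (log2 fold change 1.10 ± 0.10 (SE), adjusted p = 2.4e-07). These groups did not overlap for either gene.

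Rel changed less in Tconvs than the genes above. It was at 579, 483 and 606 at rest and 825, 743 and 825 after activation, a log2 fold change of 0.53 ± 0.10 (adjusted p = 0.000295), and without resting replicate 2 the fold change was 0.43, under the threshold. Nfkbia was at 2337, 2586 and 2579 at rest and 3825, 3977 and 3824 after activation (log2 fold change 0.63 ± 0.13 (SE), adjusted p = 0.000471). Nfkbib, the gene of IκBβ, was at 603, 662 and 609 and 1062, 1078 and 1059.9 (log2 fold change 0.77 ± 0.12 (SE), adjusted p = 6.39e-05). All activated libraries were above all resting ones for these 3 genes. Rela was at 1166, 1252 and 1209 at rest and 829.7, 876 and 924 after activation; its log2 fold change of -0.46 ± 0.08 passed the adjusted p (0.000116) but not the threshold of fold. Tnfaip3 was at 587, 563 and 538 and 565, 562 and 521, which overlap (95% interval of the log2 difference -0.31 to 0.25). The log2 difference was -0.35 for Nfkbid and 0.60 for Nfkbiz, and neither passed the test (adjusted p = 0.064 and 0.159). For both genes the Tconv groups did not overlap. Nfkbiz was at 276, 295 and 287 at rest and 406, 443 and 454 after activation. Its error comes from the spread over all 15 libraries of the fit, among which the tTreg libraries ran from 459.6 to 2079. The summed levels of 2 NK cell markers were 19.3 to 30.9 in resting and 0.9 to 3.54 in activated Tconvs. The sums of Cd8a and Cd8b1 were 223 to 236 and 110 to 123.3, nearly all from Cd8b1 (means of 229 and 112). Cd8a was near the floor of reads and did not fall (2.57 and 2.81). The part of NK or CD8 T cells in these differences was not tested.

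In tTregs, 5 members were called higher with activation, where 11.9% of all genes were, and 1 was called lower, where 10% were. The median log2 fold change was 0.52 over the members and 0.00 over all genes. Rel was at 2512, 2437 and 2415 in resting and 3960.5, 3523 and 4434 in activated tTregs (log2 fold change 0.69 ± 0.10 (SE), adjusted p = 0.000133). Nfkb2 was at 752, 1112 and 1211 and 2121, 1476 and 1762 (log2 fold change 0.81 ± 0.17 (SE), adjusted p = 0.00247). For both genes the groups were apart. Nfkbia was at 3755, 3455 and 4465 at rest and 7171, 4828 and 6378 after activation (log2 fold change 0.64 ± 0.13 (SE), adjusted p = 0.00136), and under quantile normalization its fold change was 0.50, just short of the threshold. Nfkbib and Nfkb1 also rose. Nfkbib was at 599.6, 590.4 and 778 at rest and 1255, 889 and 1146 after activation (log2 fold change 0.74 ± 0.12 (SE), adjusted p = 0.000413). Nfkb1 was at 1882, 1808 and 1563 and 2615, 2488 and 2663 (log2 fold change 0.57 ± 0.10 (SE), adjusted p = 0.000705), and without resting replicate 3 the fold change of Nfkb1 was 0.49. A20 removes ubiquitin chains from signalling proteins and so ends NF-κB signals, and its gene Tnfaip3 went the other way. It was at 1216, 1326 and 1018 in resting and 680.0, 724 and 857 in activated tTregs, so that every activated library was below every resting one (log2 fold change -0.65 ± 0.13 (SE), adjusted p = 0.00164).

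Relb and Nfkbiz varied widely between the tTreg libraries. Relb was at 81.6, 166 and 277 in resting and 304, 159.9 and 205 in activated tTregs (95% interval of the log2 difference -0.25 to 1.19). Nfkbiz, the gene of the nuclear protein IκBζ, was at 708, 949.8 and 2079 and 1318, 576 and 459.6 (interval -1.43 to 0.09). Replicate 3 of the resting and replicate 1 of the activated cells were the highest of their groups for both genes, and the groups overlapped. The log2 difference was -0.17 for Rela and -0.03 for Nfkbid, neither of which passed the test.

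Whether the activation response differed between the cell types was tested as an interaction in the fit over 15 libraries. The log2 response of 3 members was higher in Tconvs than in tTregs (17% of all genes), and that of 0 was lower (17.7% of all genes; 1 member at an unadjusted p below 0.05; 0 with edgeR or DESeq2). DESeq2 added Relb to the 3. The median difference of the members was 0.29 against -0.05 over all genes. The difference of the log2 responses was 1.55 ± 0.24 for Nfkb2 (adjusted p = 0.000167), 0.62 ± 0.18 for Tnfaip3 (adjusted p = 0.0157) and 0.54 ± 0.14 for Nfkb1 (adjusted p = 0.00831). For Tnfaip3 the difference came with a fall in tTregs and overlapping levels in Tconvs. The value for Nfkb1 was 0.48 without activated Tconv replicate 3 and again 0.48 without resting tTreg replicate 1, both under the threshold. Differences in the responses of Rel (-0.16, 95% interval -0.46 to 0.14), Nfkbia (-0.01, interval -0.39 to 0.37) and Nfkbib (0.03, interval -0.34 to 0.40) did not pass the test.

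**Figure D3:**
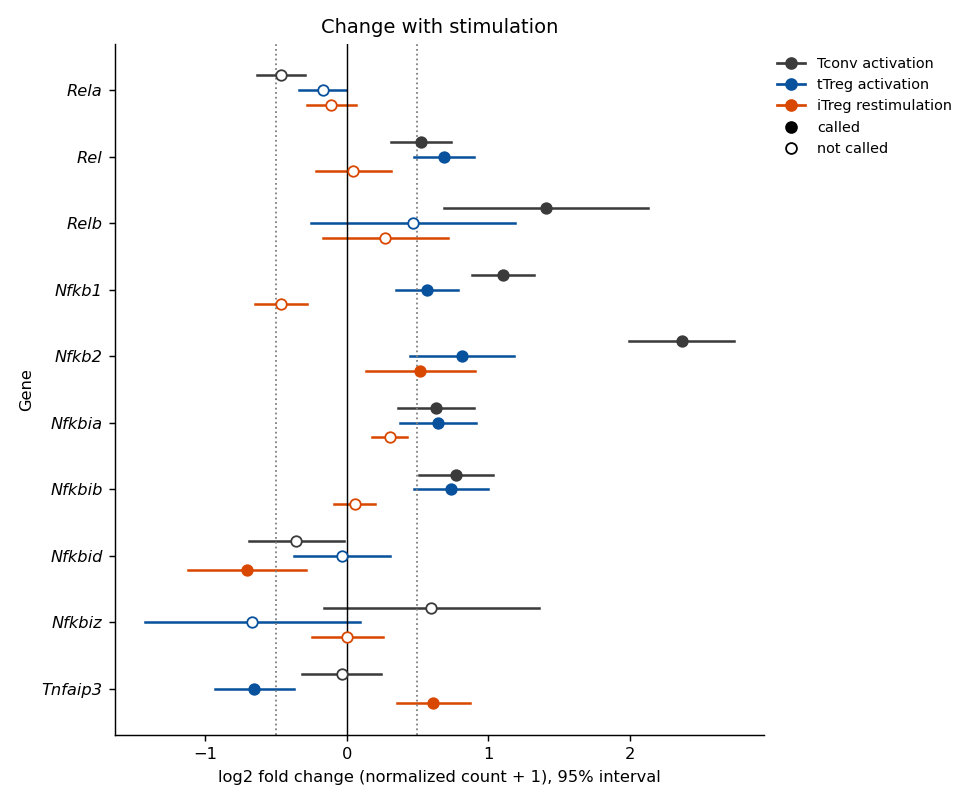
Log2 fold change (points, with 95% intervals) of each member with activation in Tconvs and tTregs and with restimulation in iTregs; filled points were called changed and dotted lines mark the fold threshold of 0.5. Nfkb1 is at 1.10, 0.57 and -0.46 and Tnfaip3 at -0.03, -0.65 and 0.61 in that order of cell types.

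At rest, tTregs held more of most NF-κB transcripts than Tconvs. In resting tTregs 6 members were called higher than in resting Tconvs (20.5% of all genes) and 0 lower (18.2% of all genes; 1 member at an unadjusted p below 0.05; 0 with edgeR or DESeq2), with a median log2 difference of 0.85 against -0.02 over all genes. The largest was Rel, whose level in the 3 libraries given above was 2454 ± 50.9 (SD, n = 3) in tTregs and 556 ± 64.5 in Tconvs (log2 fold change 2.15 ± 0.10 (SE), adjusted p = 1.7e-10). Resting tTregs also stood above activated Tconvs for Rel in every library. Nfkb2 (log2 fold change 1.77 ± 0.17 (SE), adjusted p = 7.63e-07), Nfkb1 (log2 fold change 1.12 ± 0.10 (SE), adjusted p = 3.04e-07) and Tnfaip3 (log2 fold change 1.07 ± 0.13 (SE), adjusted p = 7.71e-06) were also higher. Nfkbia was 0.63 higher on the log2 scale. Nfkbiz was higher by 1.96 ± 0.36 (adjusted p = 0.000317), and its resting tTreg libraries spread from 708 to 2079, all above the 276 to 295 of resting Tconvs. Rela was at 868 ± 34.6 in tTregs against 1209 ± 42.9 in Tconvs, a log2 difference of -0.48 (adjusted p = 0.000132) that did not reach the fold threshold. The 4 B cell markers summed to 127.9 to 136 in resting tTregs and to 20.2 to 31.9 in resting Tconvs; Cd79b made up 124 ± 2.18 (SD, n = 3) of the former, and Ms4a1, which defines B cells, was at 0 in all 6 libraries. The NK cell markers given above for Tconvs were at 0 in the tTregs, and their part was not tested.

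Resting iTregs, which had been through TCR stimulation and TGF-β, differed from Tconvs in both directions. Against resting Tconvs 2 members were called higher (32.8% of all genes) and 6 lower (30.8%), with a median of -0.69 against 0.02 over all genes. The 2 precursor genes were the ones that were higher. Nfkb1 was at 1880.3, 1756 and 2249.7 in resting iTregs, each above every resting Tconv library (log2 fold change 1.28 ± 0.10 (SE), adjusted p = 2.21e-08). Nfkb2 was at 777, 964 and 746, also above every resting Tconv library (log2 fold change 1.48 ± 0.17 (SE), adjusted p = 1.78e-06). Rel, at 163, 156 and 151, was below every Tconv library (log2 fold change -1.81 ± 0.10 (SE), adjusted p = 3.32e-10). Inhibitor genes were lower as well. Tnfaip3, at 132, 176 and 183, was below every resting Tconv library (log2 fold change -1.79 ± 0.13 (SE), adjusted p = 9e-09). Nfkbid was at 39.0, 46.4 and 40.2 against 102, 90.0 and 116 (log2 fold change -1.27 ± 0.16 (SE), adjusted p = 3.43e-06). Nfkbia was at 1541, 1371 and 1351 (log2 fold change -0.82 ± 0.13 (SE), adjusted p = 3.11e-05). Nfkbiz, at 135, 165 and 132, was below every resting Tconv library, with a log2 difference of -0.99 (adjusted p = 0.0209). That call was lost without resting iTreg replicate 1 or 3 or resting Tconv replicate 2 (adjusted p 0.051 to 0.056). The error of Nfkbiz in this fit includes the spread of the widely varying tTreg libraries. Rela had a log2 difference of -0.56 (adjusted p = 1.21e-05), which was -0.50, just short of the threshold, without resting iTreg replicate 1. The log2 difference of Nfkbib was 0.27 (interval 0.00 to 0.53) and that of Relb 0.13 (interval -0.59 to 0.85), neither of which was called.

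Against activated Tconvs, 8 members were called lower in resting iTregs (18.7% of all genes) and 0 higher (22.9% of all genes; 0 members at an unadjusted p below 0.05; 0 with edgeR or DESeq2), with a median of -1.10 against 0.02 over all genes. The differences ran from -0.51 for Nfkbib to -2.34 for Rel. Relb, at 249.8, 232 and 162 in resting iTregs, was below every activated Tconv library (log2 fold change -1.28 ± 0.34 (SE), adjusted p = 0.00491). The other 2 were Nfkb1, with a log2 difference of 0.18 (interval -0.04 to 0.40) and overlapping libraries, and Rela, with -0.10 (interval -0.26 to 0.07). The call for Nfkbib was lost without resting iTreg replicate 2 or 3 or activated Tconv replicate 2, where its difference lay between -0.49 and -0.50.

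Against resting tTregs, 5 members were called lower in resting iTregs (31.1% of all genes) and 0 higher (32.3% of all genes; 0 members at an unadjusted p below 0.05; 0 with edgeR or DESeq2), with a median of -0.61 against 0.02 over all genes. Rel had a log2 difference of -3.96 ± 0.10 (adjusted p = 1.55e-13), the largest difference of any member in any comparison here. Nfkbiz (log2 fold change -2.95 ± 0.36 (SE), adjusted p = 2.61e-06), Tnfaip3 (log2 fold change -2.86 ± 0.13 (SE), adjusted p = 6.34e-11), Nfkbia (log2 fold change -1.45 ± 0.13 (SE), adjusted p = 7.37e-08) and Nfkbid (log2 fold change -0.94 ± 0.16 (SE), adjusted p = 7.86e-05) were also lower. The other 5 did not pass the test: the intervals of the log2 difference were -0.25 to 0.09 for Rela, -0.29 to 1.16 for Relb, -0.06 to 0.38 for Nfkb1, -0.66 to 0.08 for Nfkb2 and -0.06 to 0.47 for Nfkbib. The 3 comparisons of resting iTregs share the same iTreg libraries. The B cell markers summed to 30.4 to 44.3 in resting iTregs, against the sums in tTregs given above. Across the groups, Rel levels were ordered from activated tTregs through resting tTregs, activated Tconvs and resting Tconvs to the 4 iTreg groups, among which the libraries overlapped.

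With restimulation of iTregs 3 of the 10 members were called, where 12.8% of all genes were. Of these, 2 were called higher (6.7% of all genes) and 1 lower (6.13%), with a median log2 fold change of 0.05 against -0.01 over all genes. Tnfaip3 was at 132, 176 and 183 in resting and 249, 262 and 233 in restimulated iTregs, which do not overlap (log2 fold change 0.61 ± 0.12 (SE), adjusted p = 0.0014); without resting replicate 1 the fold change was 0.47, under the threshold. Nfkbid was at 39.0, 46.4 and 40.2 at rest and 22.2, 23.5 and 30.9 after restimulation, which came from only 22, 21 and 34 reads (log2 fold change -0.70 ± 0.19 (SE), adjusted p = 0.0133). That call was lost with DESeq2 (adjusted p = 0.065) and without restimulated replicate 1 (0.050) or resting replicate 2 (0.055). Nfkb2 was at 777, 964 and 746 at rest and 1328, 1335 and 934 after restimulation (log2 fold change 0.52 ± 0.18 (SE), adjusted p = 0.0407). Its groups overlapped, and the call was lost with DESeq2 (adjusted p = 0.066) and without restimulated replicate 1 or 2 or resting replicate 1 or 3 (adjusted p 0.11 to 0.14). Nfkb2 rose in each replicate number, and the call held with the number fitted as a block, though no source ties the numbers between groups. In all 4 iTreg groups replicate 3 had the lowest Nfkb2 and the lowest Relb.

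Both Nfkb1 and Nfkbia passed the adjusted p but not the fold threshold. Nfkb1 was at 1880.3, 1756 and 2249.7 in resting and 1457, 1341 and 1446 in restimulated iTregs, all below the resting libraries (log2 fold change -0.46 ± 0.09 (SE), adjusted p = 0.000839). Nfkbia was at 1541, 1371 and 1351 and 1722, 1727 and 1806, all above them (log2 fold change 0.30 ± 0.06 (SE), adjusted p = 0.00129). Rel was at 163, 156 and 151 and 177, 146 and 164, and the 95% interval of its log2 difference, -0.22 to 0.31, lay below the thresholds on both sides. For Rela (-0.28 to 0.06), Nfkbib (-0.09 to 0.20) and Nfkbiz (-0.24 to 0.25) it did so too, while for Relb it reached 0.71.

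The restimulation response of iTregs was then set against the activation responses in one fit over all 24 libraries. Against Tconvs, the log2 response was lower for 4 members (22.6% of all genes) and higher for 1 (21.7%), with a median difference of -0.54 against 0.02 over all genes. A lower response can be a smaller rise, a fall, or a larger fall. Nfkb1 stood at -0.46 with restimulation of iTregs, under the fold threshold, and at 1.10 with activation of Tconvs. Nfkb2 differed by -1.85 ± 0.28 (adjusted p = 1.09e-05), Nfkb1 by -1.57 ± 0.13 (adjusted p = 1.7e-09), Nfkbib by -0.72 ± 0.15 (adjusted p = 0.000417) and Tnfaip3 by 0.65 ± 0.17 (adjusted p = 0.00262). Relb differed by -1.13 ± 0.44 (adjusted p = 0.0374), and this call was lost without restimulated iTreg replicate 1 or 3, resting iTreg replicate 1 or 2, activated Tconv replicate 1 or 2, or resting Tconv replicate 1 or 3 (adjusted p 0.057 to 0.091). With edgeR, Rel was called as well, with a lower response. Against tTregs, the log2 response was lower for 4 members (12.3% of all genes) and higher for 1 (9.01%), with a median of -0.32 against -0.04 over all genes. Of the 4, Nfkb1 rose in tTregs (0.57) and stood at -0.46 in iTregs. Nfkbid fell in iTregs (-0.70) and was not called in tTregs (-0.03). Tnfaip3 rose in iTregs and fell in tTregs, a difference of 1.27 ± 0.17 (adjusted p = 8.59e-06). Nfkb1 differed by -1.03 ± 0.13 (adjusted p = 4.27e-06), Nfkbib by -0.68 ± 0.15 (adjusted p = 0.00183) and Rel by -0.64 ± 0.16 (adjusted p = 0.00457). Nfkbid differed by -0.67 (adjusted p = 0.0377), a call that edgeR and DESeq2 did not make (adjusted p = 0.060 and 0.14) and that was lost without restimulated iTreg replicate 1 or 2, resting iTreg replicate 2, activated tTreg replicate 1 or 3, or resting tTreg replicate 1 or 3 (adjusted p 0.065 to 0.093). Both differences share the iTreg libraries, the stimulations may not match in length, and iTregs had been stimulated once before. The iTregs also differed from the other cells in mouse age, TGF-β, IL-2 and culture.

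The inhibitors act on the calcium arm of TCR signalling, which leads to NFAT. The study describes NF-κB as quickly activated by brief rises of calcium, in contrast to NFAT, which it describes as needing a sustained rise. With CM-4620, 1 member was called lower than in restimulated iTregs (1.79% of all genes) and 0 higher (1.5% of all genes; 0 members at an unadjusted p below 0.05; 0 with edgeR or DESeq2). The median log2 difference over the members was -0.0004, against 0.0084 over all genes. The gene was Tnfaip3, which was at 162, 176 and 170.2 with CM-4620, each below the restimulated libraries of 249, 262 and 233 (log2 fold change -0.55 ± 0.12 (SE), adjusted p = 0.011). Without restimulated replicate 2 its adjusted p was 0.055. Against resting iTregs the treated libraries overlapped, with a log2 difference of 0.07 (95% interval -0.19 to 0.32).

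With CsA, 0 members were called against restimulated iTregs by limma, where 1.57% of all genes were called higher and 1.35% lower; 4 members had an unadjusted p below 0.05, and edgeR and DESeq2 called 0. The median log2 difference was 0.0015 over the members and -0.0031 over all genes. Tnfaip3 was at 219.8, 195 and 186 with CsA, below every restimulated library, with a log2 difference of -0.31 (interval -0.57 to -0.05, adjusted p = 0.132). Nfkbid was at 44.0, 44.1 and 33.6 with CsA, at 32.6, 37.0 and 30.7 with CM-4620 and at 22.2, 23.5 and 30.9 in restimulated iTregs. The CsA libraries were all above the restimulated ones, and the log2 difference was 0.65 ± 0.19 with an adjusted p of 0.052, next to the threshold; with a pseudocount of 5, quantile normalization, all 24 libraries in the fit, or without CsA replicate 3 or restimulated replicate 3 the gene was called. Nfkbiz was at 194, 162 and 198 with CsA and 139, 142 and 151 without (log2 difference 0.35, adjusted p = 0.0775). Rel was at 156, 142 and 125 with CM-4620 and 135, 115 and 151 with CsA, with intervals of the difference from restimulated cells of -0.47 to 0.06 and -0.55 to -0.02.

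For most of the other members the intervals lay within the fold threshold. Nfkb1 was at 1329, 1570.2 and 1362 with CM-4620 and 1403, 1394 and 1431 with CsA, with intervals of the log2 difference from restimulated iTregs of -0.18 to 0.18 and -0.19 to 0.18. Nfkbia gave 0.05 (-0.08 to 0.17) with CM-4620 and -0.03 (-0.16 to 0.10) with CsA. The intervals for Nfkb2 were wider, -0.47 to 0.29 and -0.45 to 0.32. Both inhibitor groups share the restimulated libraries.

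**Figure D4:**
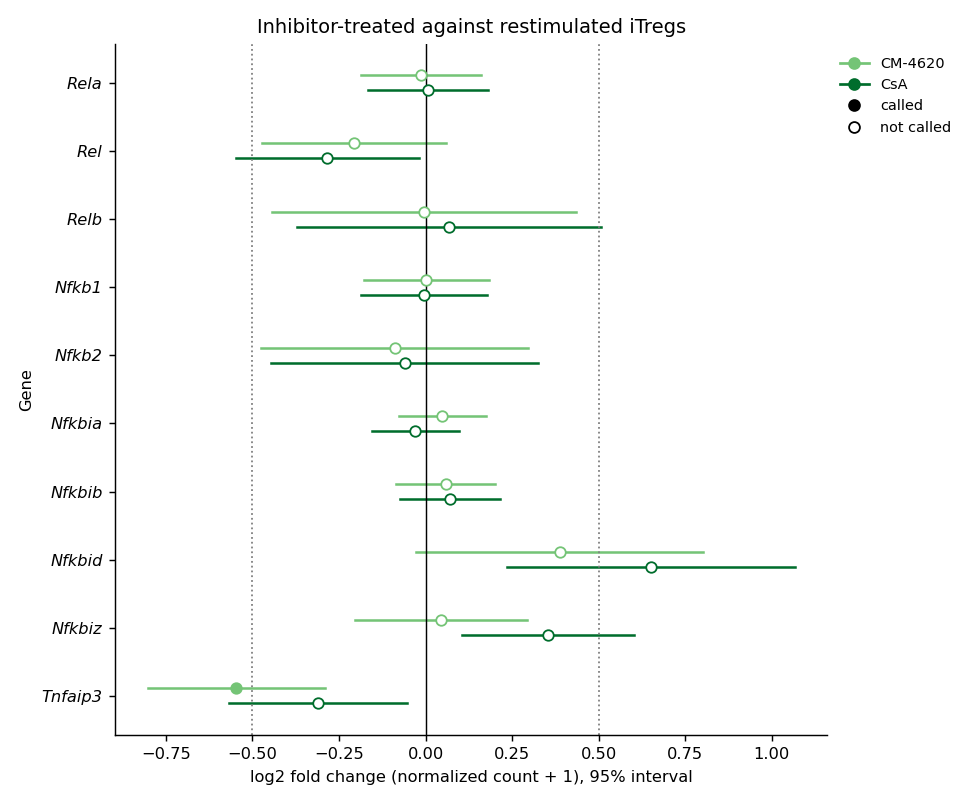
Log2 fold change (points, with 95% intervals) of each member in iTregs restimulated with CM-4620 or CsA against iTregs restimulated alone; filled points were called changed and dotted lines mark the fold threshold of 0.5. The 1 filled point is Tnfaip3 with CM-4620, at -0.55, and the CsA value of Nfkbid, at 0.65, is open.

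Between CM-4620 and CsA, at doses that the sources used here do not give, limma called 0 members, where 0.0991% of all genes were called higher and 0.261% lower; 1 member, Nfkbiz, had an unadjusted p below 0.05, and edgeR and DESeq2 called 0. The log2 difference, CM-4620 less CsA, was -0.24 for Tnfaip3 (interval -0.49 to 0.02, adjusted p = 0.49), -0.31 for Nfkbiz (-0.56 to -0.06, adjusted p = 0.311) and -0.26 for Nfkbid (-0.68 to 0.15, adjusted p = 0.651). Against resting iTregs, limma called 0 members with CM-4620 (3.97% of all genes higher, 3.13% lower) and 0 with CsA (5.19% higher, 4.24% lower), as did edgeR and DESeq2. At an unadjusted p below 0.05 there were 3 members with CM-4620 and 5 with CsA. Among them Nfkb1 stood -0.46 and -0.47 from the resting level on the log2 scale, and Nfkbia 0.35 and 0.27, all past the adjusted p and under the fold threshold. Leaving out 1 library brought the count from 0 to 1 in 5 cases. With CM-4620, Nfkb1 was called without CM-4620 replicate 2 or resting replicate 2, and Nfkb2 without CM-4620 replicate 3. With CsA, Nfkb1 was called without resting replicate 2 and Nfkb2 without CsA replicate 3.

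Other genes of the pathway were taken in 5 lists by role. In either direction, 50.2% of all genes tested were called with Tconv activation, 21.9% with tTreg activation and 12.8% with iTreg restimulation. Among 9 adaptors of the non-canonical and TNF receptor pathways, 1 gene, Traf5, fell in Tconvs (-1.41) and in restimulated iTregs (-0.67), and 1 gene, Tradd, named after its values were seen, rose in tTregs with overlapping libraries. Among the other 4 IκB and kinase genes, Bcl3, a nuclear IκB protein that binds p50 and p52 dimers, rose from 12.7 ± 2.37 to 149 ± 10.1 in Tconvs (log2 fold change 3.46, adjusted p = 1.7e-10). It was already at 150.1 ± 23.5 in resting tTregs and 178 ± 17.1 in resting iTregs, and rose to 307 ± 22.1 with restimulation (adjusted p = 1.91e-05). Of the 12 negative regulators 2 rose and 2 fell in Tconvs, 2 rose in tTregs and 1 rose in restimulated iTregs. Of the 4 IκB and kinase genes, 2 rose in Tconvs, 1 rose in tTregs, and 1 rose and 1 fell in restimulated iTregs. Whether these small counts differ from the shares of all genes given above was not tested.

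With the same shares of all genes as background (50.2%, 21.9% and 12.8%), receptor and target genes were counted next. Of 8 receptor genes 7 were tested, and 4 rose and 2 fell with Tconv activation, 2 rose with tTreg activation, and 2 rose and 1 fell with iTreg restimulation. Tnfrsf9, the gene of the costimulatory receptor 4-1BB, rose by 4.72 in Tconvs and by 1.12 in restimulated iTregs on the log2 scale. In tTregs it was not called with activation (-0.33, adjusted p = 0.18). At rest it was already higher than in Tconvs, by 7.92 in tTregs and by 6.16 in iTregs. The log2 difference of Tnfrsf9 from restimulated iTregs was -1.06 with CM-4620 (adjusted p = 3.23e-06) and -0.88 with CsA (adjusted p = 2.51e-05), at 2482 ± 216 and 2804 ± 46.5 against 5161 ± 99.6 without inhibitor. Of the 7 receptor genes tested, it was the 1 called with each inhibitor, where 3.3% and 2.92% of all genes were called. Among the 4 IκB and kinase genes, Ikbke was called higher with CM-4620 (0.55, adjusted p = 0.028), and 0 were called with CsA. Of 15 known target genes 13 were tested in the fit of Tconvs and tTregs, and 9 rose and 1 fell with Tconv activation and 5 rose with tTreg activation; of 14 tested in iTregs, 5 rose and 1 fell with restimulation. Their median log2 fold changes were 2.02, 0.31 and 0.24, against -0.04, 0.00 and -0.01 over all genes. Cd83, a surface marker of activated lymphocytes, and Lta, the gene of lymphotoxin α, led in Tconvs (log2 fold changes 4.68 and 3.92). In restimulated iTregs Cd83 rose by 1.37 (adjusted p = 0.000159), and its log2 difference with CM-4620 was -0.69 (adjusted p = 0.0547), which was not called. Of the 14 targets tested in iTregs, 0 were called with CM-4620 and 0 with CsA, where 3.3% and 2.92% of all genes were. The median log2 difference of the targets from restimulated iTregs was -0.05 with CM-4620 and -0.03 with CsA.

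**Figure D5:**
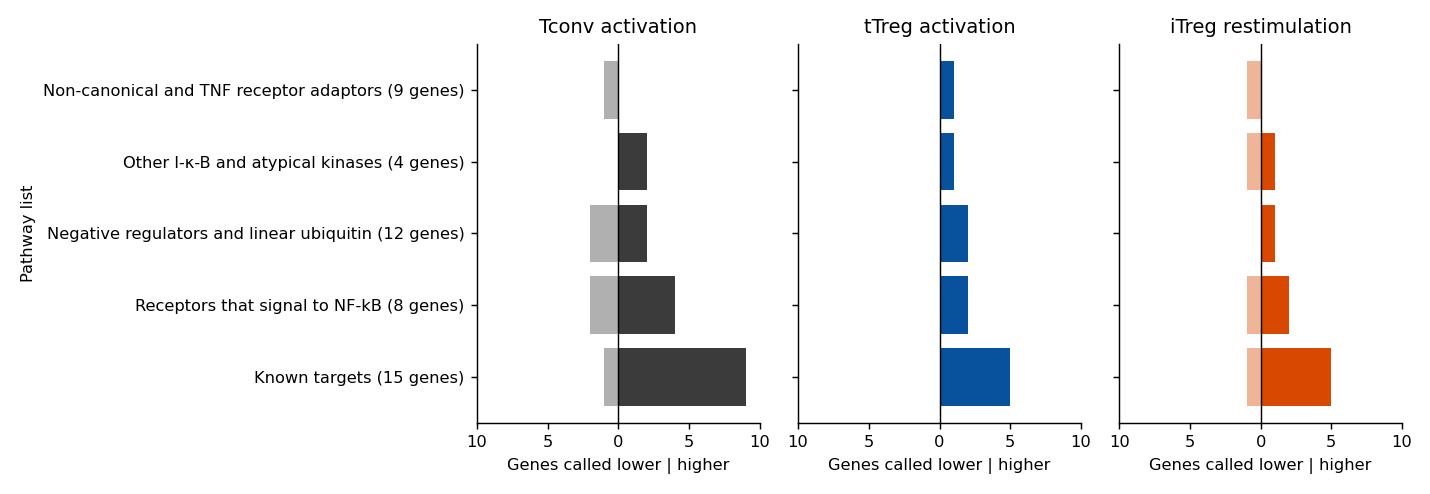
Number of genes called higher (right, full colour) and lower (left, pale) in each of 5 lists of NF-κB pathway genes with Tconv activation, tTreg activation and iTreg restimulation. The known targets show 9 higher and 1 lower in Tconvs, 5 higher in tTregs, and 5 higher and 1 lower in iTregs.

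The genes whose pattern was most like that of each member were taken by Pearson's r over the 8 group means of log2(normalized count + 1), among 8484 genes that ranged over at least 1 log2 unit. The 8 points are not independent, since 4 are iTreg groups and all share the libraries of the table, and the values are given as a description. For Rel they were Vti1a (0.994), Dcaf17 (0.993) and Hdac10 (0.991), and for Tnfaip3 Cdkal1 (0.995), Trim25 (0.992) and Slc26a1 (0.988). For Nfkb1 they were Myb (0.965), Fam129c (0.965) and Aars (0.949), and for Nfkb2 Gbp5 (0.98) and Htt (0.977) as the first of 3. Among the members themselves, the patterns of Rel and Nfkbia (0.959) and of Rel and Nfkbiz (0.957) were the closest pairs.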

How the data were processed

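RNA-seq libraries had been prepared from polyadenylated RNA by a modified SMART-seq2 protocol without molecular identifiers. The authors trimmed reads with cutadapt 1.18, aligned them to the mouse genome (mm10) with STAR 2.5.3, quantified genes with RSEM 1.3.0 and scaled them with DESeq2 1.26. The deposited signal values are gene counts divided by a size factor per library, and whole reads were recovered from them (within 0.01 read). The 24 libraries held 5.26 to 15.69 M reads, and the spread between replicates exceeded counting error 2.69 to 36.3 times as variance.

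Values were tested with limma 3.58.1 (moderated linear models with a trend, R 4.3.3) on log2(normalized count + 1) in fits of 15 libraries (Tconvs, tTregs and resting iTregs), 12 libraries (iTregs) or all 24 (differences between responses). Genes needed 10 normalized counts in 3 libraries, the Benjamini-Hochberg adjustment ran over all genes of a fit, and a call needed both thresholds of the study (0.05 for the adjusted p, 0.5 for the log2 fold change in either direction). edgeR 4.0.16 and DESeq2 1.42.0 on the recovered reads, other normalizations, pseudocounts, filters and call rules, a replicate block, and the omission of each library served as alternatives. Scripts were tested on simulated data. All 10 members were named; of the pathway lists, the genes with the largest changes whose groups do not overlap. Some genes of the lists are not reported here. Members, lists and these rules were chosen with earlier results of these data known. ATAC-seq and CUT&Tag samples were not analysed here.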

Additional observations from a re-analysis of the deposited data

Results flagged for a closer look

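The results given here are those in which a test of the difference found that the same contrast differed between cell types, on the log2 scale. For activation, Tconvs less tTregs, these were Nfkb2 (1.55), Tnfaip3 (0.62) and Nfkb1 (0.54). For the restimulation response of iTregs less the activation response of Tconvs, they were Nfkb2 (-1.85), Nfkb1 (-1.57), Relb (-1.13), Nfkbib (-0.72) and Tnfaip3 (0.65). For the restimulation response of iTregs less the activation response of tTregs, they were Tnfaip3 (1.27), Nfkb1 (-1.03), Nfkbib (-0.68), Nfkbid (-0.67) and Rel (-0.64). The calls for Nfkb1 in Tconvs less tTregs, for Relb and for Nfkbid were each lost without single libraries, as given above. These comparisons share libraries. The iTregs had been stimulated during 4 days of induction with TGF-β and IL-2 and then rested. They came from 6-week-old mice, whereas Tconvs and tTregs came from mice of 2 to 4 months. None of this can be told apart from the cell type.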

How the results depend on the processing

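For the members called, 1055 values under the alternatives kept their direction and side of the threshold, 72 lost the call and 0 reversed; calls gained by other members are not in these counts. With an absolute log2 fold change above 1 as the rule, members called were 3 in activated Tconvs, 0 in activated tTregs, 1 for the difference of those responses, 5 in resting iTregs against resting and 5 against activated Tconvs, 0 with restimulation, 0 with CM-4620 against restimulated iTregs, and 3 and 2 for the iTreg response against that of Tconvs and tTregs. With the adjusted p alone, 5 were called with restimulation, 2 with CM-4620 and 3 with CsA against resting iTregs. DESeq2 called 1 with restimulation. With CsA against restimulated iTregs 1 was called, Nfkbid, under quantile normalization, with a pseudocount of 5 (1) and with all 24 libraries (1). Leaving out single libraries gave 1 to 3 calls with restimulation, 0 to 1 for each inhibitor against restimulated and against resting iTregs, and 0 for CM-4620 against CsA; Tnfaip3 with CM-4620 was lost without restimulated replicate 2, and Nfkbid with CsA was gained without CsA or restimulated replicate 3. A replicate block, fitted because the labels share replicate numbers, left every count as it was (6, 6, 3, 6, 8, 8, 5, 3, 1, 0, 0, 0, 0, 5 and 5 in the order of the comparisons). Deviations of libraries with the same number correlated at -0.039 to 0.302 in iTregs (mean 0.152, against -0.075 for different numbers; 0.208 to 0.302 for replicate 3) and at -0.425 to 0.244 over the 15 libraries; since not every pair correlated and no source ties the numbers, they were not treated as pairs. Under the block the adjusted p of Nfkb2, restimulated against resting iTregs, was 0.000207. Of 80 values per kb, 49 moved by more than 1 SD with the longest transcript as the length. Depth limits Nfkbid most, at 21 to 34 reads in restimulated iTregs.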
